A study of Homo sapiens with 2 samples.

Results

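CDX2, SOX9, KLF5, GATA6 and KLF4 are transcription factor genes of the intestinal epithelium, and the peaks of the transcription factor PROX1 at these 5 genes are described here. Peaks were taken when their centre lay in a span of the gene plus about 100 kb on each side, on the hg18 build. This gave 44 of the 23450 peaks listed. The data come from SW480R cells, a subpopulation of the established human colorectal adenocarcinoma line SW480. There was 1 library of chromatin immunoprecipitated with an antibody against PROX1 (ChIP-seq), pooled from 3 independent experiments, and 1 library of input DNA, the same kind of chromatin without antibody. The labels name no treatment or genetic change in either library. With 1 library of each kind, no replicate spread could be measured, and intervals cover counting error only.

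PROX1 is a homeobox factor that is switched on in part of colorectal tumours. CDX2 is the homeobox factor that sets intestinal identity. SOX9 is an HMG box factor of crypt progenitors and Paneth cells, GATA6 is a zinc finger factor needed for the growth of the crypt epithelium, and the Krüppel-like zinc finger factors KLF5 and KLF4 are active mainly in dividing crypt cells and in differentiating cells, goblet cells among them. ChIP-seq shows where PROX1 was cross-linked to chromatin, and says nothing about whether a gene was active. Expression of the 5 genes was not measured in the data used here.

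PROX1 peaks were most frequent at KLF5, followed by CDX2, GATA6, SOX9 and KLF4. The KLF5 span (chr13:72431000-72650000) held 24 peaks in 219 kb, or 0.110 peaks per kb. The CDX2 span (chr13:27334000-27541000) held 9 in 207 kb (0.0435 per kb). The GATA6 span (chr18:17903000-18136000) held 6 in 233 kb (0.0258 per kb). SOX9 and KLF4 were closest to the genome rate of 0.00819 peaks per kb, which is taken over nuclear length without assembly gaps. The SOX9 span (chr17:67529000-67734000) held 3 peaks in 205 kb (0.0146 per kb), and the KLF4 span (chr9:109187000-109392000) held 2 in 205 kb (0.00976 per kb).

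**Figure D1:**
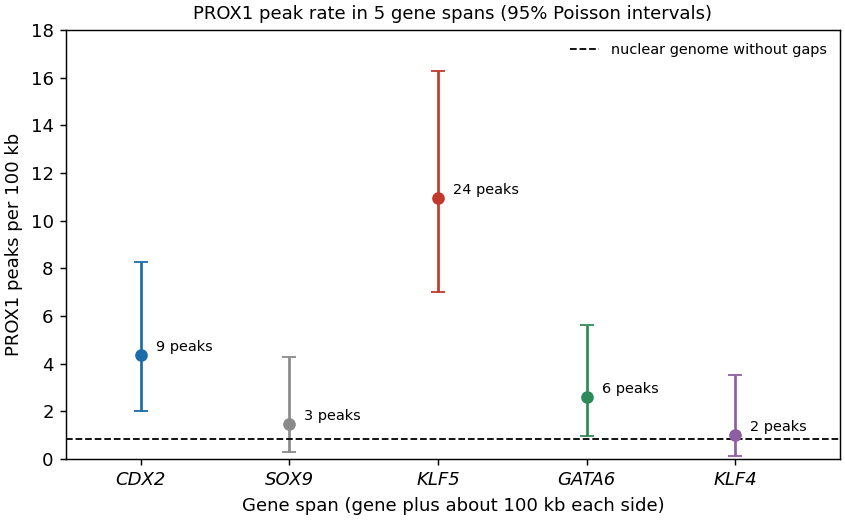
PROX1 peaks per 100 kb in each span (points), with exact 95% Poisson intervals (bars) and the nuclear genome rate of 0.819 per 100 kb (dashed line). KLF5, at 11.0, has the highest value, and the intervals of SOX9 and KLF4 include the genome rate.

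Set against the genome, the KLF5 span held 13.4 times the number of peaks its length gives (exact Poisson 95% interval 8.57 to 19.9). CDX2 held 5.31 times that number (2.43 to 10.1) and GATA6 3.14 times (1.15 to 6.84). For SOX9 the ratio was 1.79 (0.368 to 5.22) and for KLF4 1.19 (0.144 to 4.30), and both intervals include 1. These intervals take neighbouring peaks as independent, although peaks cluster, so they are too narrow. In the order of rates, each gene's interval overlapped that of its neighbour. The interval of KLF5 (7.02 to 16.3 peaks per 100 kb) lay wholly above those of GATA6 (0.945 to 5.60), SOX9 (0.302 to 4.28) and KLF4 (0.118 to 3.52).

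Few stretches of the genome held as many peaks as the KLF5 span. Among 12912 windows of its length laid end to end over the genome without gaps, 17 (0.132%) held 24 or more peaks, and on chromosome 13 this was 1 of 434. As many peaks as in the CDX2 span were found in 3.28% of windows of that length, and as many as in the GATA6 span in 9.68%. For SOX9 the share was 22.9% and for KLF4 33.7%, so counts like theirs were common. A window of 200 kb held a median of 1 peak, and 48.6% held none.

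None of the 5 spans passed the test that allows for clustering. A negative binomial distribution was fitted to 14147 windows of 200 kb, and p-values were adjusted over these windows and the spans (Benjamini-Hochberg). The unadjusted p was 0.00137 for KLF5, 0.0683 for CDX2, 0.205 for GATA6, 0.460 for SOX9 and 0.671 for KLF4, and each adjusted p was 1. Of the windows themselves, 0.00707% (1 window, with 52 peaks) were called higher, so this test calls only the extreme. Under an exact binomial test, which takes peaks as independent, KLF5 (adjusted p = 5.01e-16) and CDX2 (adjusted p = 0.00229) passed, as did 5.69% of all windows.

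At CDX2, PROX1 peaks gathered at the start of the gene and inside it. The gene is read from the minus strand, and the rule places it at about 27434000 to 27441000 of chromosome 13. Edges of all 5 genes are rounded in the rule, so short distances below are approximate. A run of 5 peaks, joined where edges lay within 10 kb, covered 6.84 kb (27437991 to 27444831) from 3.8 kb upstream of the start to 2.9 kb inside the gene. It held 234 of the 369 tags in peaks of the span (63.4%). A tag is a sequenced ChIP fragment counted in a peak.

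The strongest CDX2 peak lay inside the gene, 2.9 kb from its start, at 27437991 to 27438251, with 111 tags and a fold over input of 62.15. It was also the widest of the 44 peaks, at 260 bp. The next strongest lay about 0.5 kb upstream of the start, at 27441411 to 27441611, with 56 tags and a fold of 56.14. These are the 2 strong peaks of the span, where strong means a fold of at least 26.06, or 2 times the lowest one listed. The other members of the run had 32, 20 and 15 tags at folds of 16.04, 13.03 and 15.04, near the lowest fold listed (13.03).

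The remaining 4 CDX2 peaks stood alone. Upstream they lay 43.7 kb (18 tags) and 90.6 kb (19 tags) from the start, the side on which RefSeq (GRCh38.p14) lists URAD and FLT3, a receptor of blood progenitors. Downstream they lay 15.5 kb (22 tags) and 93.7 kb (76 tags) away, on the side of PDX1, the homeobox factor of pancreas and duodenum. The 76-tag peak had a fold of 19.05, below the strong level, and its inferred input was 4 tags. Input was inferred from the tags and the fold of each peak, so it restates the fold and does not explain it. Which gene a distant peak acts on was not tested.

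At KLF5, all 24 peaks lay in 4 separate runs, while 56.6% of all nuclear peaks had another within 10 kb. The genome share is taken at a lower peak rate, so part of this difference follows from the number of peaks in the span. The gene is read from the plus strand and is placed at about 72531000 to 72550000 of chromosome 13. Along its transcription, the runs held 4 peaks at about 18 to 20.6 kb upstream, 7 peaks from 2.6 kb upstream to 3.1 kb inside, 3 peaks at 31.9 to 37.5 kb downstream of the start and 10 peaks at 104 to 113 kb. Places with 7 or more peaks numbered 149 among the 14752 places of the genome (1.01%), counted with peaks within 10 kb joined. KLF5 had 2 of them, with 7 and 10 peaks, so the cut used equals the size of the smaller one. Apart from these runs the span was empty: no peak lay in its first 79.4 kb, on the side where RefSeq lists PIBF1, and the nearest listed peak below the span was 667 kb outside it.

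The run at the KLF5 start (72528331 to 72534171) held 211 tags in 5.84 kb. Its highest counts were 61 tags at 72530791 to 72530991, about 0.1 kb upstream of the start, and 51 tags at 72528331 to 72528371, 2.6 kb upstream. Their folds differed in the other direction: the first reached 13.78 over an inferred input of about 4.44 tags, and the second reached 51.13 over an inferred input of 1. Inside the gene, the peaks at 2.2 and 3.1 kb had 29 and 20 tags. The remaining 3 peaks had 15 to 18 tags. RefSeq lists 2 starts for KLF5, 4029 bp apart on GRCh38.p14. The gene is 18.5 kb long from the second, which is close to the 19 kb of the rule, so the run is placed here against that one. Counted from the first start, which lies earlier, the peaks called upstream in this run would lie inside the gene.

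The downstream run of KLF5 (72635331 to 72644191) held more tags than the run at its start. Its 10 peaks had 512 tags in 8.86 kb, 57.7% of the 887 tags in the span, and formed 3 groups when only peaks within 1 kb were joined. One of the peaks, at 72635851 to 72635891, counted 116 tags at a fold of 116.29 over an inferred input of 1. It is rank 113 by fold among 23417 nuclear peaks. Its neighbour 100 bp away, at 72635711 to 72635751, had 124 tags, the most in the span, but a fold of 31.08, with an inferred input of 4. A further high peak, at 72643631 to 72643671, counted 68 tags at a fold of 68.17. The remaining 7 peaks ranged from 16 to 53 tags.

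The other 2 runs of KLF5 were weaker but differed in their folds. The upstream run (72510291 to 72513011) had peaks of 14 to 26 tags, 74 in all, of which 1 was strong. The run at 72562891 to 72568551 had 29, 32 and 29 tags, and all 3 of its peaks were strong, with folds of 26.06 to 32.08. The last peak inside the span lay 5.8 kb from its edge (41 tags, fold 13.70), and the next one listed lay 16.6 kb outside (17 tags, fold 15.04).

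At GATA6, the peak nearest the start was weak and the tags lay downstream of the gene. The gene is read from the plus strand, at about 18003000 to 18036000 of chromosome 18. A peak about 0.5 kb inside its start, at 18003371 to 18003571, counted 29 tags, at a fold of 14.54, over an inferred input of 2. A further peak lay 6.0 kb inside, with 14 tags, and these 2 peaks form a run when joined within 10 kb. The other 4 peaks formed a run of 9.10 kb (18075871 to 18084971) at 72.9 to 81.9 kb from the start, beyond the end of the gene.

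The downstream GATA6 run held 311 of the 354 tags in the span (87.9%), nearly all in a pair of peaks 80 bp apart. The first, at 18084751 to 18084791, counted 159 tags at a fold of 39.85, the most tags of any peak in the 5 spans and rank 363 among nuclear peaks. The second, at 18084871 to 18084971, counted 121 at a fold of 23.86. Inferred inputs were 4 and 5, so both stood on raised input, and the second was the only one of the 44 peaks at an input of 5 or more (4.54% of nuclear peaks). Whether input bears on these counts was not tested. No peak was listed upstream of GATA6 within its span, and the nearest on that side lay 36.4 kb outside it.

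**Figure D2:**
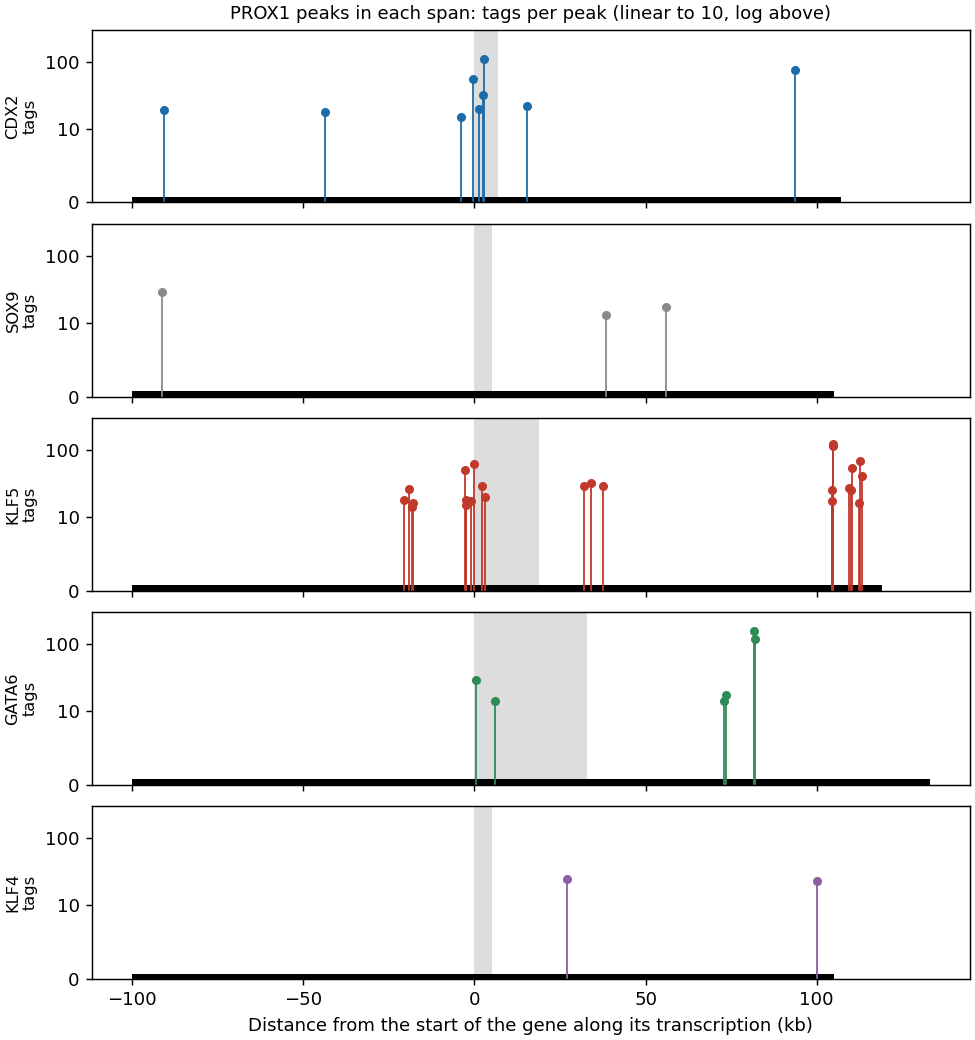
Tags of each PROX1 peak (vertical axis, linear to 10 and logarithmic above) against distance in kb from the start of the gene, along its transcription. Grey marks the gene and the black bar the span. Runs sit at the starts of CDX2, KLF5 and GATA6 (2 peaks at GATA6), upstream of KLF5, and downstream of KLF5 and GATA6. SOX9 and KLF4 have none near the start.

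At SOX9 and KLF4, no peak was listed inside the gene or within 25 kb of its start. A place without a listed peak may still be bound, because only places above the authors' threshold are listed. The 3 peaks of SOX9, which is read from the plus strand at about 67629000 to 67634000 of chromosome 17, stood apart from each other. The strongest, 91.1 kb upstream at 67537851 to 67537891, counted 29 tags at a fold of 29.07. Those 38.4 and 55.9 kb downstream of the start had 13 and 17 tags, and both were at the lowest fold of the list, 13.03.

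KLF4 is read from the minus strand, at about 109287000 to 109292000 of chromosome 9, and both of its peaks lay downstream. The peak 27.0 kb from the start (109264971 to 109265031) counted 24 tags at a fold of 24.06. The other, 100 kb away (109191731 to 109191851), counted 23 tags at a fold of 23.06. Neither reached the strong level, and each had an inferred input of 1. With a margin of 200 kb KLF4 held the same number of peaks, which is 0.603 times the genome rate.

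The promoters of CDX2, KLF5 and GATA6 are shown because peaks lay within about 0.5 kb of their starts, and that of KLF4 as a gene with none within 25 kb. The promoter of SOX9, the other such gene, was not used here. Each line gives the 250 bases before a start in RefSeq, on GRCh38.p14, 5′ to 3′ on the strand of the gene. CDX2 is at chr13:27969316-27969565 (minus strand), KLF5 (its second start) at chr13:73058755-73059004 (plus), GATA6 at chr18:22169339-22169588 (plus) and KLF4 at chr9:107489770-107490019 (minus). The peaks are on hg18, so which bases a peak covers is not known. Capitals mark matches, on either strand, to 5 short motifs: the GC box GGGCGG, which proteins of the SP and KLF families can bind, the CCAAT box CCAAT, and the cores TTTAT for CDX, GATAA for GATA and CTTTG for TCF factors.
CDX2: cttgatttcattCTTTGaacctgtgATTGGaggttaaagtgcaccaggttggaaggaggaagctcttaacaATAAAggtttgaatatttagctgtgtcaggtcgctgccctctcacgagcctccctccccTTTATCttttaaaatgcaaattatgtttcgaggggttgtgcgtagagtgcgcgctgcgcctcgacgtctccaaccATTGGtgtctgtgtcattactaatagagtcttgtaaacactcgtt
KLF5: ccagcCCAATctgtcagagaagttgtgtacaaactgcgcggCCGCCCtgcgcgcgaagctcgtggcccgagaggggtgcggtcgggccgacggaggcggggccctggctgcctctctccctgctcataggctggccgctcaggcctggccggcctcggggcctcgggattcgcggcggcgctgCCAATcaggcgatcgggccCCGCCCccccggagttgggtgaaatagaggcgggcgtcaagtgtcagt
GATA6: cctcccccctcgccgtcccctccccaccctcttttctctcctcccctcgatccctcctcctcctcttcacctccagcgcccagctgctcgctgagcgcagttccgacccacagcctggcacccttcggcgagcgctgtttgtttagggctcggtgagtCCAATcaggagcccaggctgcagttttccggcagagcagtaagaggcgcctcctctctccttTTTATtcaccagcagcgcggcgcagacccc
KLF4: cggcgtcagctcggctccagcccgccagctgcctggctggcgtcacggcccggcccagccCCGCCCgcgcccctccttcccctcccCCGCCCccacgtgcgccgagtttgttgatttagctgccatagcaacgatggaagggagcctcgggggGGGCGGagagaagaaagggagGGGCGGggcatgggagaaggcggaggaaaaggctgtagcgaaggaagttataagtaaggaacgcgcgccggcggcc

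The promoters differed in base composition and in the motifs they held. CDX2 had 45.2% G and C, KLF5 70.8%, GATA6 64.4% and KLF4 69.2%, against a median of 58.0% over 35116 RefSeq promoters of this length. CDX2 held 2 CCAAT boxes, 2 CDX cores, 1 TCF core and 1 GATA core, which overlaps a CDX core, and no GC box. KLF5 held 2 GC boxes and 2 CCAAT boxes at this start. Before its first start, not printed, 40.8% of bases were G or C, with 1 CDX core and none of the other motifs. GATA6 held 1 CCAAT box and 1 CDX core, and KLF4 held 4 GC boxes and none of the other motifs. All 5 motifs are common: GC boxes were found in 42.6% of the promoters, TCF cores in 42.1%, CDX cores in 32.7%, CCAAT boxes in 32.0% and GATA cores in 20.4%. A match describes letters only, and no motif for PROX1 was searched.

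Peaks in the 5 spans were much like other nuclear peaks in strength. Their median tag count was 25, the same as over all nuclear peaks, and their median fold was 18.5 against 19.05. Strong peaks made up 14 of the 44 (31.8%, exact binomial 95% interval 18.6 to 47.6), against 30.3% of nuclear peaks. By gene, 10 of 24 peaks were strong at KLF5 (41.7%, 22.1 to 63.4), 2 of 9 at CDX2 (22.2%, 2.81 to 60.0), 1 of 6 at GATA6, 1 of 3 at SOX9 and 0 of 2 at KLF4. The order of the genes depended on the measure. At 3 times the lowest fold the KLF5 share was 12.5% (3 peaks), against 13.5% of nuclear peaks, and that of CDX2 was still 22.2%. Taking as many nuclear peaks by tags instead, the share was 29.2% at KLF5 and 33.3% at both CDX2 and GATA6. Counts of 100 tags or more were found in 5 of the 44 (11.4%) and in 5.50% of nuclear peaks. They were 1 peak at CDX2, 2 at KLF5 and 2 at GATA6. An inferred input of 2 or more, after rounding, was found in 11 of 44 (25%) and in 24.1% of nuclear peaks.

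**Figure D3:**
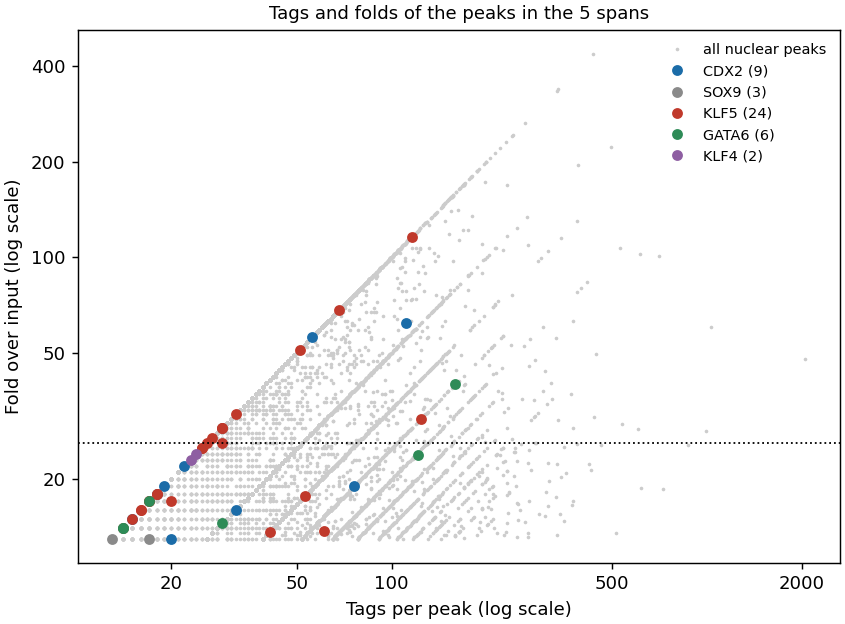
Fold over input against tags for the 44 peaks of the 5 spans (coloured by gene) and all nuclear peaks (grey), both axes logarithmic; the dotted line is the strong level, 26.06. The upper diagonal holds peaks at the lowest inferred input, and the 2 GATA6 peaks of 159 and 121 tags lie well below it.

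The genes differed more in how closely their peaks lay together. A span with more peaks leaves less room between them, so the shares below restate the peak counts in part. Closeness beyond that was not tested. At KLF5, 20 of 24 peaks had another listed peak within 1 kb, as did 4 of 6 at GATA6 and 2 of 9 at CDX2, against 33.1% of nuclear peaks. No peak of SOX9 or KLF4 had another within 10 kb, which 56.6% of nuclear peaks had. Counted as places, with peaks within 10 kb joined, CDX2 had 5, KLF5 4, SOX9 3, and GATA6 and KLF4 2 each. On that count KLF5 fell from 13.4 to 3.54 times the genome rate and CDX2 had 4.68 times. SOX9 had 2.84 times, KLF4 1.89 and GATA6 1.66, so the order of the genes differed from that by peaks. With peaks within 1 kb counted once, KLF5 had 11 places and 7.56 times the rate. Whether peaks so close are separate sites was not tested.

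In the full list, tags per kb put the genes in the same order as peaks per kb. Tags in peaks came to 4.05 per kb at KLF5, 1.78 at CDX2 and 1.52 at GATA6, against 0.309 over the nuclear genome. They came to 0.288 per kb at SOX9 and 0.229 at KLF4, both below the genome value, although the peak rates of these genes were above the genome rate. At GATA6 the 159-tag peak alone made up 44.9% of the tags. At KLF5 the highest peak made up 14.0%.

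Widening the spans to 500 kb on each side brought in further peaks at all 5 genes. Within 10 kb of the gene, CDX2 had 6 peaks (22.2 per 100 kb), KLF5 7 (17.9), GATA6 2 (3.77) and SOX9 and KLF4 none. Within 500 kb, SOX9 had 32 peaks (3.18 per 100 kb, 3.89 times the genome rate), while KLF5 had 47, CDX2 24, KLF4 19 and GATA6 16. At 200 kb CDX2 already had 17 peaks, 7 of its added ones lying 100 to 200 kb downstream (265 tags), whereas KLF4 had gained none. Most peaks of SOX9 lay downstream, beyond the span: a run of 6 peaks began 260 kb from the gene, a run of 10 (67919051 to 67942931, 493 tags) covered 285 to 309 kb, and a run of 9 with 632 tags began at 483 kb. KLF5 had 2 further runs downstream, of 9 peaks at 145 to 160 kb (72695191 to 72710011, 525 tags, up to 204 in 1 peak) and of 6 peaks at 334 to 352 kb. Distances in this paragraph are counted from the nearer edge of the gene, not from its start as above. Within 1000 kb, all 5 genes had between 1.57 and 2.97 peaks per 100 kb. These wider stretches hold other genes, and the distances other than the 200 kb margin were chosen after the peaks had been counted.

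**Figure D4:**
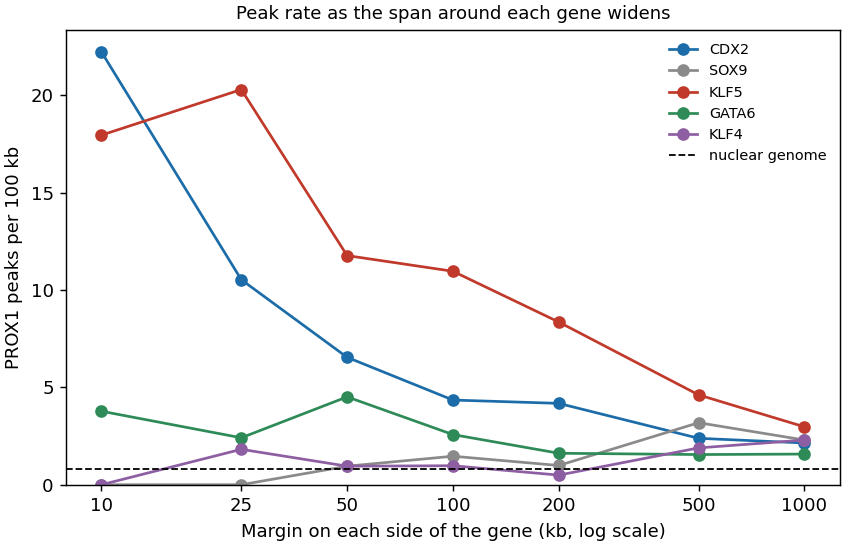
PROX1 peaks per 100 kb as the margin on each side of the gene grows from 10 to 1000 kb (logarithmic axis); the dashed line is the genome rate, 0.819. CDX2 and KLF5 fall from 22.2 and 17.9 at 10 kb, while SOX9 starts at 0 and reaches 3.18 at 500 kb.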

How the data were processed

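Everything was computed from the authors' PROX1 peak list, in which the input library appears through the folds alone. Positions are on hg18 (per the submitters' processing notes). Aligner, caller and threshold were not given in the sources used here. Tags are deposited as raw counts, at least 13 in each peak. The deposited fold is a ratio of ChIP to input tags, and the deposited p-value (or q-value) reaches 0.00099. Neither full library depth nor the base from which starts are counted is known. Coordinates are printed as listed.

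Spans came from rounded hg18 gene positions. The strand of SOX9 is textbook knowledge, the others RefSeq's. Input was inferred as tags times 1.0025 divided by the fold, and is approximate where not whole. The factor sets the lowest input to 1, which is an assumed level and not a counted tag. At that level the fold restates the tags. The 33 mitochondrial peaks were left out. Chromosome lengths and contigs of hg18 came from GenomeInfoDb 1.38.1 and IRanges 2.36.0 (R 4.3.3). The negative binomial fit and exact intervals used scipy 1.17.1, with numpy 2.4.6, pandas 2.3.3 and matplotlib 3.10.9 in Python 3.11.15. The negative binomial fit and test were tried on simulated counts, and the exact intervals were not. All 5 genes are named. In each span the peaks with the most tags, the highest fold, and the nearest start were named, with the members of the largest run. Members, lists and tests were chosen with earlier results of these data known. Motifs were chosen after the peaks were seen. An annotation of hg18 genes was not used here, so other intestinal regulators were not counted, and peaks are not assigned to exons or introns.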

Additional observations from a re-analysis of the deposited data

How the results depend on the processing

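The peak number of each span was recomputed under 11 alternatives, of which the margin of 500 kb was chosen after seeing the data. For 4 genes the ratio stayed above 1 under all 11: CDX2 ranged from 2.91 to 7.98, KLF5 from 3.54 to 16.7, GATA6 from 1.66 to 5.51 and SOX9 from 1.08 to 3.89. The 1.08 of SOX9 is against the rate of its own chromosome, not of the genome. The exact binomial test keeps the ratio, and counting assembly gaps as length raises every ratio. Counting peaks with any overlap can only add to a span, and it left every count unchanged. None of these alternatives could turn the direction. SOX9 rested on 1 peak with a margin of 50 kb and in each list of 11725 peaks. In the list by fold, the ratio was 2.38 at KLF4, 2.10 at GATA6 and 1.19 at SOX9, so the lower order of the genes changed. KLF4 turned to 0 with the 11725 peaks that have the most tags, where none of its peaks was left, and to 0.603 with a margin of 200 kb. The exact binomial test gave the only calls, for KLF5 (13.4 times, adjusted p = 5.01e-16) and CDX2 (5.31 times, adjusted p = 0.00229), because it takes peaks as independent. Tags among the 11725 peaks with the highest folds were 581 at KLF5, 280 at GATA6, 265 at CDX2, 47 at KLF4 and 29 at SOX9. KLF4 kept all its tags there and so stood above SOX9. No paired analysis was possible because there is 1 library of each kind. The full depth of the libraries is unknown, so places below the threshold could not be assessed.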
